A study of Mus musculus with 12 samples.

Results

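The JAK kinases and the STAT proteins that are not dedicated to interferon were examined in CD8+ T cell progenitors with and without UTX. The 9 genes, the kinases *Jak1*, *Jak2*, *Jak3* and *Tyk2* and the transcription factors *Stat3*, *Stat4*, *Stat5a*, *Stat5b* and *Stat6*, were taken from the files by gene symbol, together with every ATAC-seq peak annotated to them. They are 9 of 25860 genes listed in the RNA-seq table and 9 of the 14459 genes tested.

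Cytokine receptors of this family have no kinase of their own and carry a pair of JAK kinases on their cytoplasmic tails. When a cytokine joins the receptor chains, the JAKs phosphorylate the receptor and then the STATs that dock on it, and the STATs pair, enter the nucleus and bind DNA. In CD8+ T cells the pathway carries survival and differentiation signals from IL-2, IL-7, IL-15, IL-12, IL-21, IL-6 and the interferons, and SOCS proteins, phosphatases and PIAS proteins restrain it.

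RNA-seq and ATAC-seq were carried out on progenitor cells sorted from pancreatic lymph nodes of female mice, with 3 biological replicates per genotype in each assay. Both groups were nonobese diabetic (NOD) mice with the NY8.3 transgene, which gives T cells a receptor for the β cell antigen IGRP, and both carried floxed alleles of *Kdm6a*, which lies on the X chromosome and encodes the histone demethylase UTX. In the UTX TCD group, Cre recombinase under the *Lck* promoter deleted *Kdm6a* in T cells, and the WT group were Cre-negative littermates. The floxed allele and the Cre transgene had been backcrossed to NOD from C57BL/6, and the cells were sorted as Ly108+ without CXCR6 according to the series description and as Ly108+CD39- in the study's methods. The age of the mice behind these libraries is not given in the sources used here.

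RNA-seq levels are normalized counts, the reads of a gene divided by 1 size factor per library. The WT libraries held 146456724, 144503203 and 193568919 counted reads in replicates 1, 2 and 3, and the UTX TCD libraries held 61512402, 175462433 and 187275082. UTX TCD replicate 1 was the shallowest, and even there the member with the fewest reads, *Stat5a*, had 6946. The most abundant member, *Jak1*, had up to 423778 reads in a library. Genes were compared with limma on log2(normalized count + 1), where the log2 fold change is UTX TCD over WT. A gene is said to have passed the test at a Benjamini-Hochberg adjusted p under 0.05 over all 14459 genes, and to have been called when its absolute log2 fold change was also over 0.5. For a single value, 3 libraries against 3 allow no two-sided exact permutation p below 0.1.

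*Kdm6a* itself had 28365, 28949 and 29172 normalized counts in WT replicates 1, 2 and 3 and 24158, 24792 and 24579 in UTX TCD. The genotypes did not overlap, and *Kdm6a* fell by 0.23 on the log2 scale (SE 0.04, limma adjusted p = 0.00114). A count over the whole gene does not tell which of its exons Cre removed. Of the genes of the sort, *Cxcr6*, a chemokine receptor of effector cells, fell (log2 fold change −1.07, adjusted p = 0.000131), and *Cd44*, a marker of antigen experience, rose by 0.17 (adjusted p = 0.0322, and did not pass in 6 of 17 alternatives, among them when any 1 library other than UTX TCD replicate 2 was left out). *Slamf6*, which encodes Ly108, had a log2 fold change of 0.29 (95% interval 0.01 to 0.57, adjusted p = 0.089; 0.43 and adjusted p = 0.00923 without WT replicate 2, 0.16 and adjusted p = 0.256 without WT replicate 3). *Entpd1*, which encodes CD39, had no more than 29.6 normalized counts in any library (log2 fold change −1.15, adjusted p = 0.131).

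Markers of CD8 T cells were abundant in every library. The 6 genes of that list summed to 942881, 896944 and 927817 normalized counts in WT and 917688, 900928 and 827295 in UTX TCD, led by *Cd8a*, and of the 6 tested 1 passed higher and 4 lower. The B cell list summed to 2951, 2437 and 2800 in WT and 1221, 1082 and 1000 in UTX TCD, and of 4 tested of 5, 1 passed higher and 1 lower. Its most abundant gene, *Cd79b*, had 2502, 1930 and 2465 normalized counts in WT and 648, 633 and 470 in UTX TCD. The stromal or endothelial list summed to 31789, 29800 and 31932 in WT and 37718, 37860 and 33667 in UTX TCD, nearly all of it *Pecam1*, and 1 of 3 tested of 4 passed, higher. *Cdh5*, an endothelial cadherin below the level needed for the test, went the other way, with 24.8, 21.7 and 9.91 in WT and 0 in all UTX TCD libraries.

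The other lists were low. CD4 T cell markers, led by *Foxp3*, summed to 475, 373 and 442 in WT and 373, 350 and 344 in UTX TCD (2 of 3 tested passed lower), and erythroid markers, led by *Alas2*, to 241, 196 and 169 and to 173, 163 and 299 (2 tested, 0 passed). Myeloid markers, led by *Lyz2*, summed to 92.1, 131 and 67.9 and to 67.5, 84.9 and 80.3 (1 of 2 tested passed lower), with *S100a8* at 0 in all libraries. The myeloid gene that passed, *Csf1r*, reached the level needed for the test only through its WT libraries. Its mean was 24.2 in WT and 6.07 in UTX TCD, so that no conclusion is drawn from its passing. Dendritic cell markers, led by *Zbtb46*, summed to 66.4, 44.4 and 32.8 and to 56.2, 74.5 and 81.1, and NK cell markers, led by *Klrb1c*, to 35.7, 55.3 and 16.8 and to 18, 10.4 and 38.3 (1 gene tested in each, 0 passed). The part of these differences in the levels of the JAK and STAT genes was not tested, and in bulk RNA fewer cells of a type and less RNA per cell cannot be told apart.

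Among the 9 members, 1 passed the test. *Jak2* rose, which is 1 of 9 members passing higher and 0 of 9 passing lower, against 20.2% of all tested genes higher, 20.5% lower and 40.7% in either direction. No member was called by limma, edgeR or DESeq2, against 17.6% of all tested genes by limma, and 1 member had an unadjusted p under 0.05. Of the 5 STAT members 0 passed by limma, edgeR or DESeq2, and 0 had an unadjusted p under 0.05. The members' log2 fold changes ran from −0.07 to 0.24, with a median of 0.07 and a median absolute value of 0.07, where all tested genes had a median of 0 and a median absolute value of 0.21. The libraries of the genotypes did not overlap for 3 of the 9 members, *Jak2*, *Tyk2* and *Stat6*, against 51.9% of all tested genes. This depended on the scaling, since with libraries scaled to the same sum those of *Tyk2* overlapped and those of *Jak1*, *Stat3* and *Stat5b* did not. Of the 9, 6 had a log2 fold change above 0, and the signs of *Jak3* and *Stat5a* below 0 turned when all libraries were scaled to the same sum.

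*Jak2*, the kinase of the receptors for GM-CSF, IL-3, interferon-γ and IL-12, had 31851, 35519 and 33191 normalized counts in WT replicates 1, 2 and 3. In UTX TCD replicates 1, 2 and 3 it had 38672, 40310 and 39656. The lowest UTX TCD library exceeded the highest WT library, and the UTX TCD libraries were also closer to each other. The mean rose from 33521 ± 1856 (SD, n = 3) to 39546 ± 825. The log2 fold change from limma was 0.24 (SE 0.05, adjusted p = 0.00415), which is 18.1% on the linear scale (95% interval 9.41 to 27.4%) and under the fold limit for a call. Larger absolute log2 fold changes were found in 45.5% of all tested genes, so that the size of the *Jak2* difference was near the middle of the transcriptome. Over the 17 alternative settings *Jak2* passed each time, with log2 fold changes of 0.20 to 0.30 and adjusted p of 0.000128 to 0.0223. The settings that change only the fold limit repeat the main fit, so that passing there was fixed beforehand.

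*Jak1*, which pairs with most cytokine receptors including those with the common gamma chain, gp130 and interferon receptors, was the most abundant member. It had 285545, 314301 and 295684 normalized counts in WT and 322353, 331188 and 312389 in UTX TCD. WT replicate 2, the highest WT library, lay above UTX TCD replicate 3, the lowest of its group, and apart from that pair the libraries were in order of genotype. The mean was 298510 ± 14585 in WT and 321977 ± 9405 in UTX TCD (SD, n = 3), and the log2 fold change of 0.11 had a 95% interval of −0.02 to 0.24 (adjusted p = 0.158). With libraries scaled to the same sum it was 0.17 with an adjusted p of 0.0337, past the threshold.

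*Jak3*, which binds the common gamma chain alone, had 21729, 22971 and 21260 normalized counts in WT and 19941, 19339 and 26038 in UTX TCD. UTX TCD replicates 1 and 2 lay below every WT library and UTX TCD replicate 3 above every WT library. The SD was 884 in WT and 3706 in UTX TCD, and the log2 fold change of −0.03 (95% interval −0.25 to 0.20, adjusted p = 0.854) turned to 0.04 under scaling to the same sum. It was −0.16 without UTX TCD replicate 3 (adjusted p = 0.0289, so that 2 members then passed), 0.05 without UTX TCD replicate 2, 0.03 without UTX TCD replicate 1 and 0.01 without WT replicate 2. The direction of *Jak3* therefore rested on single libraries, and the cause of the high value in replicate 3 was not tested.

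*Tyk2*, the partner kinase on type I interferon, IL-12 and IL-23 receptors, had 17527, 17564 and 18608 normalized counts in WT and 16904, 17099 and 17138 in UTX TCD. The UTX TCD libraries all lay below the WT libraries, within a narrow range. The means were 17899 ± 614 and 17047 ± 125 (SD, n = 3), and the log2 fold change of −0.07 had a 95% interval of −0.16 to 0.02 (adjusted p = 0.206). It was −0.04 without WT replicate 3 and −0.08 without WT replicate 1 or 2. With libraries scaled to the same sum the genotypes overlapped and it was −0.01 (adjusted p = 0.886).

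*Stat3*, the main STAT downstream of IL-6, IL-21, IL-23 and LIF, had 39217, 39841 and 40851 normalized counts in WT and 39864, 41556 and 45402 in UTX TCD. The groups overlapped, with UTX TCD replicate 1 among the WT libraries and replicate 3 highest of all. The log2 fold change was 0.08 (95% interval −0.04 to 0.20, adjusted p = 0.268). It was 0.03 without UTX TCD replicate 3 and 0.12 without UTX TCD replicate 1. *Stat4*, which is activated by IL-12 and type I interferon, had 39315, 41571 and 38799 normalized counts in WT and 44050, 43143 and 39525 in UTX TCD. Here replicate 3 was the lowest UTX TCD library and lay among the WT libraries, and the log2 fold change was 0.08 (95% interval −0.04 to 0.20, adjusted p = 0.248). Without UTX TCD replicate 3 it was 0.13 (adjusted p = 0.0576), and without UTX TCD replicate 1 it was 0.05.

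*Stat5a* and *Stat5b* encode a closely related pair of STATs downstream of IL-2, IL-7 and IL-15. *Stat5a* lay between 15980 and 17028 normalized counts in the WT libraries and between 15624 and 16710 in the UTX TCD libraries, and its log2 fold change of −0.02 (95% interval −0.12 to 0.08, adjusted p = 0.711) turned to 0.04 under scaling to the same sum. *Stat5b* lay between 36338 and 39821 in the WT libraries and between 37559 and 41078 in the UTX TCD libraries, and its log2 fold change was 0.05 (95% interval −0.07 to 0.17, adjusted p = 0.498). That value was 0.01 without UTX TCD replicate 2 and 0.09 without WT replicate 3. The genotypes overlapped for both genes. The ratio of *Stat5a* to *Stat5b* normalized counts was 0.443, 0.440 and 0.428 in WT and 0.408, 0.395 and 0.445 in UTX TCD. UTX TCD replicate 3 had the highest ratio of the 6 libraries and the other UTX TCD libraries the lowest, and the two-sided exact permutation p was 0.4.

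*Stat6*, the STAT of IL-4 and IL-13, had 43860, 45596 and 45941 normalized counts in WT and 46790, 49070 and 46492 in UTX TCD. The UTX TCD libraries all lay above the WT libraries. The means were 45133 ± 1115 and 47451 ± 1410 (SD, n = 3), and the log2 fold change of 0.07 had a 95% interval of −0.02 to 0.17 (adjusted p = 0.206). With libraries scaled to the same sum it was 0.13 with an adjusted p of 0.0216, past the threshold. That scaling raised the median log2 fold change of all tested genes to 0.062, and 3 members then passed in place of 1.

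**Figure D1:**
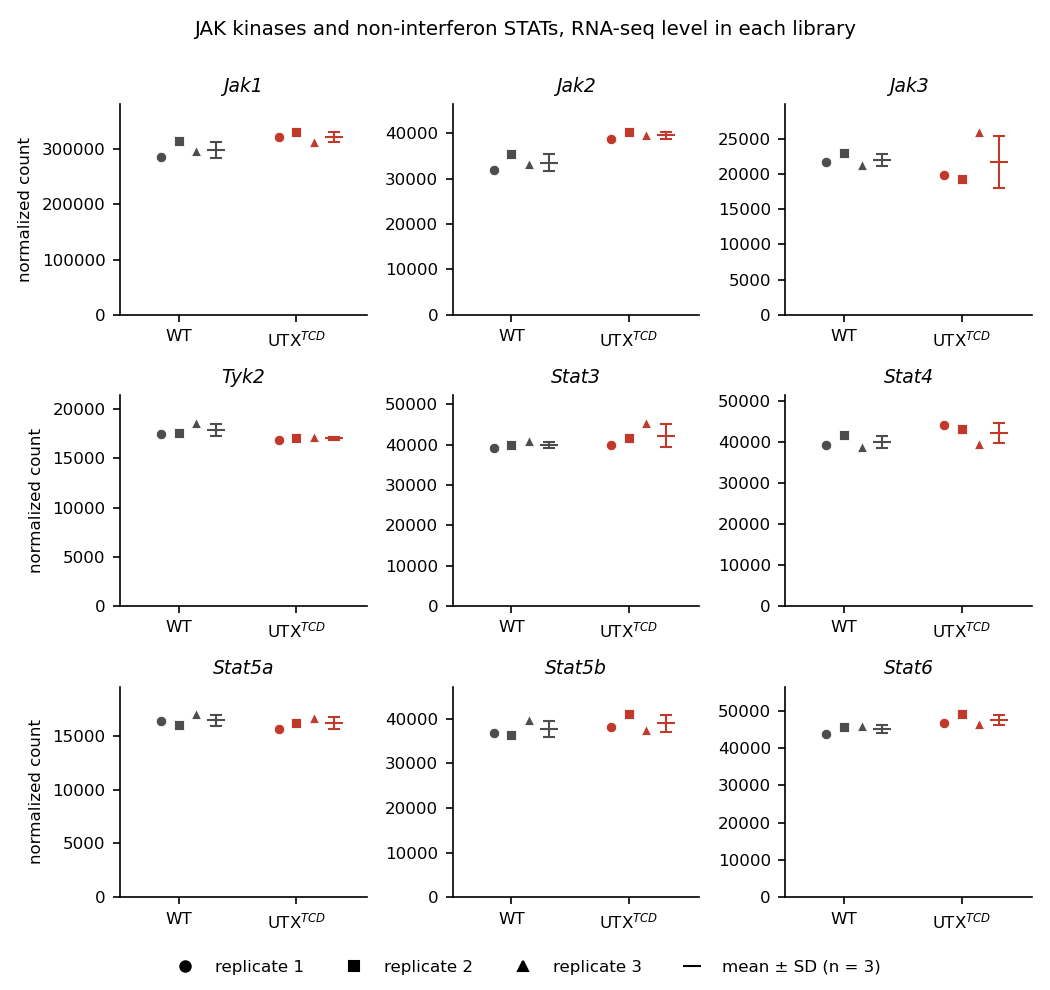
RNA-seq level of each of the 9 genes in every library, as normalized counts on axes that start at 0, with a marker shape per replicate and the mean ± SD of 3 libraries beside each genotype (WT grey, UTX TCD red). The UTX TCD libraries of *Jak2* lie above all WT libraries, and those of *Jak3* lie on both sides of them, with 26038 normalized counts in replicate 3 and 19339 in replicate 2.

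**Figure D2:**
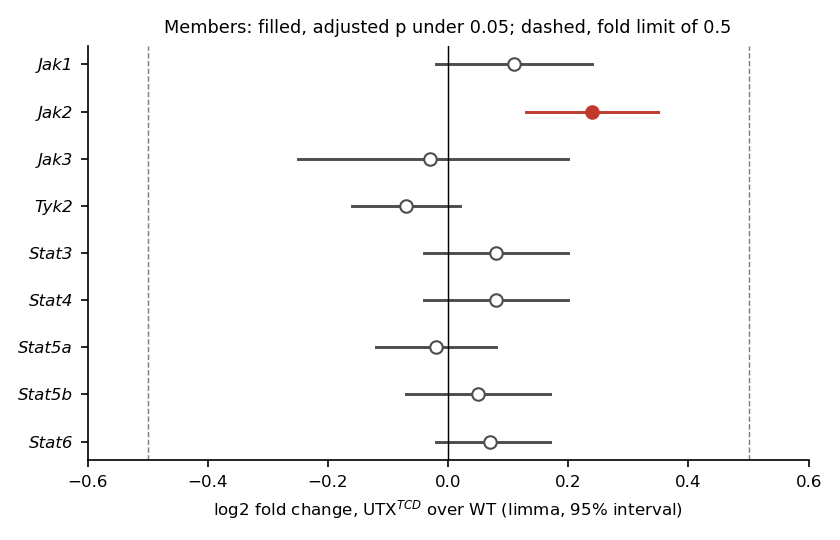
Log2 fold change of each of the 9 genes, UTX TCD over WT, with the 95% interval from limma as a line and the fold limit of 0.5 dashed; the filled point passed the test. The interval of *Jak2*, 0.13 to 0.35, lies above 0 and the other 8 include 0, and the points of *Jak3* (−0.03) and *Stat5a* (−0.02) move above 0 when libraries are scaled to the same sum.

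Summed over the 4 JAK genes, the libraries held 356651, 390354 and 368743 normalized counts in WT and 397870, 407937 and 395220 in UTX TCD. The sum was higher in all 3 UTX TCD libraries than in any WT library, with a mean 7.64% higher and the smallest two-sided exact permutation p that 3 against 3 allow, 0.1. With libraries scaled to the same sum the mean was 12.3% higher, again without overlap. *Jak1* made up 80.3 ± 0.235% of the JAK sum in WT and 80.4 ± 1.19% in UTX TCD (SD, n = 3), though *Jak1* alone overlapped between the genotypes where the sum did not. *Jak2* made up 9.01 ± 0.0846% in WT and 9.88 ± 0.157% in UTX TCD. *Tyk2* made up 4.82 ± 0.285% and 4.26 ± 0.0729%, and *Jak3* 5.91 ± 0.165% and 5.45 ± 0.998%. These shares count reads and were not corrected for transcript length.

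Summed over the 5 STAT genes, the libraries held 175697, 179327 and 182441 normalized counts in WT and 184625, 191093 and 185688 in UTX TCD. The groups again did not overlap, with a mean 4.45% higher in UTX TCD (two-sided exact permutation p = 0.1), and 9.06% higher with libraries scaled to the same sum. *Stat6* held the largest share of the sum and *Stat5a* the smallest. *Stat6* made up 25.2 ± 0.231% in WT and 25.4 ± 0.321% in UTX TCD, and *Stat5a* 9.19 ± 0.238% and 8.65 ± 0.299%. *Stat3*, *Stat4* and *Stat5b* each held between those shares, at 22.3%, 22.3% and 21% of the STAT sum in WT.

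Levels can be set side by side between genes only per length, here as normalized counts per kb of annotated exons. *Jak1* was first in both genotypes, at 41305 ± 2018 per kb in WT and 44552 ± 1301 in UTX TCD (SD, n = 3), which is 4.01-fold and 4.08-fold over the next gene, *Stat4*. *Stat4* and *Stat6* followed at 10303 and 10253 per kb in WT and 10909 and 10779 in UTX TCD, and their libraries overlapped in each genotype. *Stat5b* and *Jak2* were next in WT, at 6807 and 6664 per kb, again with overlapping libraries. In UTX TCD they stood in the other order, with *Jak2* at 7862 ± 164 per kb above *Stat5b* at 7037 ± 335 and no overlap. *Stat3* and *Jak3* overlapped in both genotypes, at 4195 and 4108 per kb in WT and 4437 and 4068 in UTX TCD. *Tyk2*, at 2607 per kb in WT and 2483 in UTX TCD, and *Stat5a*, at 2307 and 2270, were the lowest members and did not overlap with each other. The exon length used takes in all annotated transcripts of a gene, and the isoforms in these cells were not measured here.

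Some members share exons or sequence with other genes, and the annotation, strand setting and treatment of reads with several matches behind the counts are not given in the sources used here. In the GENCODE annotation of GRCm38, 1033 exon bases of *Stat4* (26.7%) were shared with Gm28177 on the same strand, and 404 of *Jak3* (7.55%) with *Insl3*, which had 77.7 to 178 normalized counts. *Tyk2* shared 554 exon bases (8.07%) with the antisense gene 1700084C06Rik. *Stat5a* and *Stat5b* share sequence as paralogs. Of the 50-base windows in their transcripts, 8.21% of those of *Stat5a* also occurred in *Stat5b*, and 11% of those of *Stat5b* in *Stat5a*. *Jak2* had no exon base and no 50-base window in common with another gene in that annotation.

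ATAC-seq measures open chromatin through the insertion of adapters by a transposase. The table used here lists 23932 peaks that the authors selected as differing between the genotypes, with the authors' mean for each genotype as the log2 of the normalized read count, and without values per library, so that no error or test is given for them. The smallest absolute difference of means in that list was 0.18. A peak belongs to a member when the authors annotated it to that gene, which goes by the nearest start site. A gene without a listed peak may have open chromatin that was not listed.

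The members had 22 listed peaks, of which 19 had a higher mean in UTX TCD and 3 a lower one. That is 86.4% higher, against 68.8% of all listed peaks. Past an absolute difference of 0.5 on the log2 scale were 11 of the 22 (50%), against 73.1% of all listed peaks, and 10 of the 22 were past it with the higher mean in UTX TCD, against 49.3%. The median absolute difference was 0.49 for the members' peaks and 0.71 for all listed peaks. Peaks were listed for 6 of the 9 members (66.7%), against 47.6% of all tested genes, and none for *Jak3*, *Tyk2* or *Stat6*. Of the 22 peaks, 18 lay in introns, 4 between genes and 0 in promoters, and all 22 were within 50 kb of the start site to which they were annotated. Among all 23932 listed peaks 10808 were annotated to introns, 8534 between genes and 2621 to promoters, and 18771 were within 50 kb.

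*Jak2*, the member that passed the test in RNA, had 6 listed peaks, all with the higher mean in UTX TCD and all past 0.5. Having 6 or more listed peaks was true of 2 members, *Jak2* and *Jak1*, and of 3.72% of all tested genes. The largest difference was at chr19:29209913-29210313 (mm10), an intergenic peak upstream of *Jak2*, at −41.7 kb from its start site and 66262 bases from the nearest other gene before it, *Rcl1*. Its mean log2 level was 6.77 in WT and 8.26 in UTX TCD, a difference of 1.49 or 2.8-fold, and 12.6% of all listed peaks had a larger absolute difference. The next peak towards the gene, at chr19:29237032-29237432, was the most open of the 6 in both genotypes (9.63 in WT, 10.14 in UTX TCD) and had the smallest difference, 0.51.

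The other 4 *Jak2* peaks lay in introns, from 10 to 18.6 kb after the start site, the first of them before the exon at chr19:29262183-29262433 and the other 3 after it. The authors' annotation numbers both introns 2, on transcripts with 24 and 23 introns. At chr19:29261651-29262051 the mean log2 level was 8.05 in WT and 9.49 in UTX TCD, a difference of 1.44 or 2.71-fold. At chr19:29265394-29265794 it was 6.59 and 7.89, a difference of 1.30 or 2.46-fold. The 2 peaks farther into the gene, chr19:29267356-29267756 and chr19:29270210-29270610, differed by 0.61 and 0.63. The 3 largest differences were thus at the far upstream peak and the first 2 intronic peaks, 1 on each side of that exon, and the *Jak2* promoter held no listed peak.

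**Figure D3:**
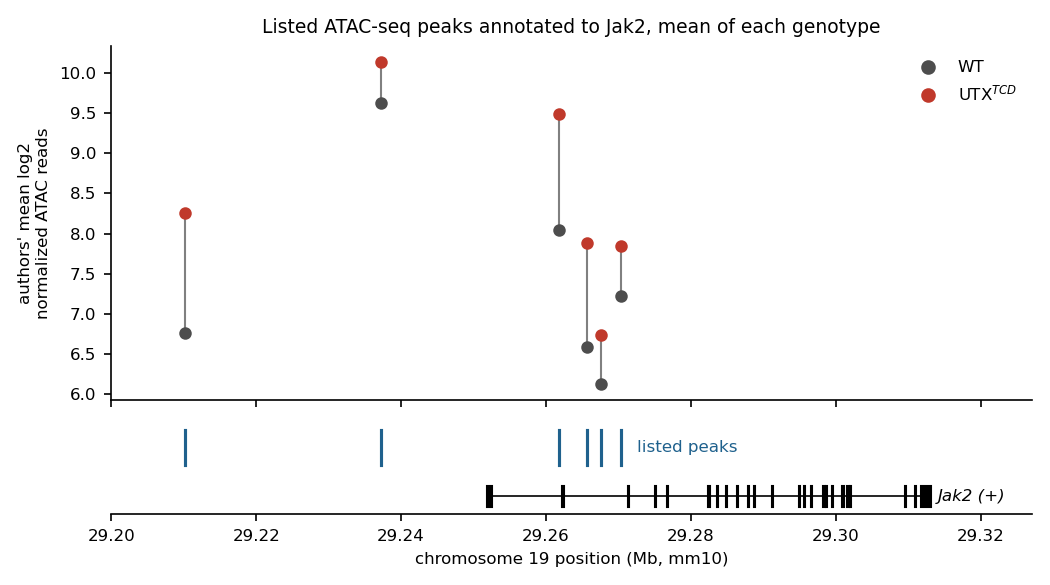
The 6 listed ATAC-seq peaks annotated to *Jak2* on chromosome 19 (Mb, mm10), with the authors' mean log2 normalized ATAC reads of WT (grey) and UTX TCD (red) joined by a line at each peak, and the peak positions and *Jak2* exons underneath. The UTX TCD mean is the higher of the pair at all 6 peaks, by 0.51 to 1.49.

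*Jak1* also had 6 listed peaks, and these went both ways. Its 5 intronic peaks, all in intron 1 between 4.26 and 48 kb from the start site, differed by 0.32, 0.58, 0.33 and 0.35 where the UTX TCD mean was higher and by −0.31 at chr4:101250351-101250751, where it was lower. The largest difference of the 6 was at an intergenic upstream peak, −18.9 kb from the start site, at chr4:101283951-101284351, with a mean log2 level of 8.83 in WT and 8.12 in UTX TCD. That is −0.71 or 0.611 of the WT level. The most open *Jak1* peak, chr4:101217008-101217408, had 10.61 in WT and 10.93 in UTX TCD. Most intronic peaks of *Jak1* thus had the higher mean in UTX TCD and the upstream peak the lower one, while its RNA had an interval that included 0.

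*Stat4* had 5 listed peaks, all intronic and all with the higher mean in UTX TCD. The largest difference was at chr1:52034950-52035350 in intron 3, 26.9 kb after the nearest annotated start site, with 7.36 in WT and 8.56 in UTX TCD, a difference of 1.20 or 2.3-fold. A second intron 3 peak, chr1:52055911-52056311, had 5.71 and 6.81, a difference of 1.10. The other 3 *Stat4* peaks differed by 0.38 to 0.47, among them the most open one, chr1:52019691-52020091, with 11.27 in WT and 11.66 in UTX TCD. *Stat4* RNA did not pass the test, with the interval given above.

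*Stat5b* had 3 listed peaks in introns, all with the higher mean in UTX TCD and none past 0.5. The largest difference was 0.45, at chr11:100804440-100804840 in intron 3 (10.23 in WT, 10.68 in UTX TCD), and the most open of the 3, chr11:100823991-100824391 in intron 1, had 11.82 and 12.14. *Stat3* had a single listed peak, chr11:100952214-100952614, at −12.9 kb from its start site, with 7.21 in WT and 7.73 in UTX TCD. That peak lay 4322 bases from the body of *Cavin1*, closer than to *Stat3*. *Stat5a* had 1 listed peak too, chr11:100888834-100889234, with 9.85 in WT and 9.38 in UTX TCD, a difference of −0.47. It lay 28.6 kb from the *Stat5a* start site and inside the body of *Stat3*, the neighbouring gene on the other strand, so its annotation to *Stat5a* rests on the distance to start sites alone.

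The letters TTCNNNGAA, the palindrome bound by most STAT dimers, read the same on both strands and were searched in the 401 bases of each listed peak. They occurred in 3 of the members' 22 peaks (13.6%) and in 11.9% of all listed peaks, a share near the background. The 3 were the intergenic *Jak1* peak with the lower UTX TCD mean (−0.71), a *Jak1* intron 1 peak with the higher one (0.58) and the last *Jak2* intronic peak (0.63). In the 12 RefSeq promoters of the 9 members, 300 bases each, there were 0 matches, where 8.3% of 32851 promoters of that length held one. No listed peak overlapped a member's promoter. A match describes letters in the reference and was not tested for binding.

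The stretches with these letters are given with the motif in capitals, since they are the places in the members' listed peaks where the STAT palindrome occurs. All are on the plus strand of GRCm38.p6, the build named mm10, from the C57BL/6J reference, while the mice were NOD.
Jak1 chr4:101284062-101284212: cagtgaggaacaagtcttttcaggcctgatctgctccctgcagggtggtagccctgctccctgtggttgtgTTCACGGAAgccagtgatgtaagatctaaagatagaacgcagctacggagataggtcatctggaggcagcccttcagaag
Jak1 chr4:101244244-101244335: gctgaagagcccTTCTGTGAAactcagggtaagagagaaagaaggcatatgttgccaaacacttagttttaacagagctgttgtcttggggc
Jak2 chr19:29270473-29270610: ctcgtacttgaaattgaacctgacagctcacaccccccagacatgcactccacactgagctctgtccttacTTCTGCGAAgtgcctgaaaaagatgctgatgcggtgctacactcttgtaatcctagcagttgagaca

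The middle of the *Jak2* peaks with the largest differences and of the largest *Stat4* peak is given next, without a match and so without capitals, since these 3 had the largest differences of the *Jak2* intergenic, *Jak2* intronic and *Stat4* peaks. Strand and build are as above.
Jak2 chr19:29210038-29210188: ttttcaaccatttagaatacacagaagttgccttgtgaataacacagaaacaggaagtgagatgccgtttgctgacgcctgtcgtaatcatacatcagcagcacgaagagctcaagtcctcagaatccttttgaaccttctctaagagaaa
Jak2 chr19:29261776-29261926: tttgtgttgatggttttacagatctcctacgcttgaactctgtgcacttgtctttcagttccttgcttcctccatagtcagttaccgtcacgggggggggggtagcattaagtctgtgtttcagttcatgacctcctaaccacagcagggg
Stat4 chr1:52035075-52035225: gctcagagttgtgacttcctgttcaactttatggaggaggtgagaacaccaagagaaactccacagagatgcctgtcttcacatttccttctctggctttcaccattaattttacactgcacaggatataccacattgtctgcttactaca

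The genes that work with the JAKs and STATs were examined as lists of receptors, ligands, inhibitors and targets. Of their 90 genes 68 were tested and 41 passed, 25 higher and 16 lower, and 22 were called, with a median log2 fold change of 0.08 beside 0 for all tested genes. That is 60.3% passing, 36.8% higher, 23.5% lower and 32.4% called, against 40.7%, 20.2%, 20.5% and 17.6% of all tested genes, the shares to set beside the count of each list. Their median absolute log2 fold change was 0.28, where the members had 0.07 and all tested genes 0.21. The lists are given next to the JAK or STAT that each serves. The most abundant gene of a list is the one with the most normalized counts over all libraries, without regard to length.

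*Jak1* and *Jak3* sit on the common gamma chain receptors, of which 4 of 7 tested subunits passed, 3 higher and 1 lower (median 0.21). *Il2rb*, the signalling chain for IL-2 and IL-15, rose by 0.63 (adjusted p = 3.65e-05), and *Il4ra*, whose receptor activates *Stat6*, rose by 0.66 (adjusted p = 6.35e-05). *Il2rg*, the common gamma chain and the docking site of *Jak3*, was the most abundant of them and fell by 0.27 on the log2 scale (adjusted p = 0.0073).

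*Jak1*, *Jak2* and *Tyk2* serve the gp130 family, the upstream side of *Stat3*, and all 5 tested of 8 subunits passed, 3 higher and 2 lower (median 0.25), though 3 passed without UTX TCD replicate 2. *Il6ra* fell by 0.68 (adjusted p = 0.000172), and *Il6st*, which encodes gp130 itself and was the most abundant, fell by 0.19 (adjusted p = 0.0285, and did not pass with libraries scaled to the same sum or without WT replicate 1 or 3 or UTX TCD replicate 1 or 2). *Lifr* had 6.93, 14.8 and 10.7 normalized counts in WT and 51.7, 60.9 and 21.4 in UTX TCD, a rise of 1.88 at low counts (adjusted p = 0.0107). Of 13 cytokine ligands 3 were tested and 2 passed, both higher (median 0.24), and 1 passed without WT replicate 1 or 3 or UTX TCD replicate 1 or 2 and with the replicate number as a block. With no filter all 13 were tested and 4 passed, 3 higher and 1 lower. The ligands tested only in that setting had at most 11 reads in any library, so that no conclusion is drawn from their passing. *Lif*, the ligand of that receptor, rose from 17.8, 26.7 and 12.2 normalized counts to 96.7, 63.3 and 157 (log2 fold change 2.39, adjusted p = 0.0014), and *Osm*, the most abundant ligand, by 0.24 (adjusted p = 0.0308, and did not pass when any 1 of those 4 libraries was left out or with the replicate number as a block).

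*Jak2* and *Tyk2* sit on the IL-12 and IL-23 receptors, which lead to *Stat4* and *Stat3*, and 2 of their 3 subunits were called lower. The third, *Il23r*, was called higher at low counts, but it reached the level needed for the test only through its UTX TCD libraries. Its mean was 26.1 there and 5.15 in WT, so that no conclusion is drawn from its call. The counts over all lists include it. *Il12rb1*, shared by both receptors and the most abundant, had 1694, 1751 and 1814 normalized counts in WT and 706, 641 and 843 in UTX TCD and fell by 1.27 (adjusted p = 2.7e-05). *Il12rb2*, specific to IL-12, fell by 0.96 (adjusted p = 0.000156). *Il23r* had 1.98, 8.89 and 4.58 normalized counts in WT and 15.7, 9.61 and 53.1 in UTX TCD, with UTX TCD replicate 3 the highest (log2 fold change 1.96, adjusted p = 0.0468, and did not pass in 6 of 15 alternatives, among them with no filter and without WT replicate 1 or 3 or UTX TCD replicate 1). Without UTX TCD replicate 3 it was below the level needed for the test.

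*Jak1* also serves the interferon and IL-10 receptors, of which 4 of 6 tested subunits passed, all lower (median −0.49). *Ifngr1*, the ligand-binding chain for interferon-γ, fell by 0.97 (adjusted p = 2.14e-05), and *Ifngr2*, the chain that carries *Jak2*, fell by 0.53 (adjusted p = 0.000232), which came under the fold limit with libraries scaled to the same sum (−0.46) and without WT replicate 3 or UTX TCD replicate 3. *Ifnar1*, the chain that carries *Tyk2* and the most abundant of the list, fell by 0.30 (adjusted p = 0.000377).

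A further list held 12 receptor chains, most of them coupled to *Jak2*, of which 5 were tested and 3 passed, all higher (median 0.85). *Csf2ra*, the GM-CSF receptor alpha chain, had 494, 427 and 406 normalized counts in WT and 1833, 1463 and 1424 in UTX TCD, a rise of 1.82 (adjusted p = 9.01e-06). *Il3ra* rose by 1.61 (adjusted p = 1.29e-05) and *Crlf2*, the TSLP receptor chain and the most abundant of the list, by 0.85 (adjusted p = 0.000109). *Csf2rb*, the signalling chain that *Csf2ra* and *Il3ra* share and through which *Jak2* acts, was chosen after its values were seen. It had 13.9, 12.8 and 8.39 normalized counts in WT and 4.5, 3.2 and 4.42 in UTX TCD and was below the level needed for the test.

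Several members of the SOCS family are induced by STATs and restrain the pathway. Of the 8 genes of the family 5 passed, 4 higher and 1 lower (median 0.13). Only 3 passed without WT replicate 1 or 2 or UTX TCD replicate 1 or 2. *Cish*, a target of STAT5, had 756, 827 and 742 normalized counts in WT and 2423, 2705 and 2161 in UTX TCD, a rise of 1.64 (adjusted p = 3.92e-06). *Socs1* rose by 0.66 (adjusted p = 0.000154), and *Socs3*, the inhibitor of gp130 signalling, by 0.76 (adjusted p = 0.000731), with UTX TCD replicate 3 highest at 15311 as it was for *Jak3*. *Socs3* was the most abundant over all libraries and in UTX TCD (mean 12559). In WT its mean of 7325 lay below those of *Socs4* (8792) and *Socs7* (8991). Of the 4 PIAS genes 2 passed, 1 in each direction, both under the fold limit (median −0.06), and 0 or 1 passed when any 1 library other than WT replicate 2 was left out, with libraries scaled to the same sum, with TMM factors and with the replicate number as a block. *Pias1*, the most abundant, had a log2 fold change of −0.03 (95% interval −0.14 to 0.09, adjusted p = 0.698) that turned to 0.04 under scaling to the same sum. Of 8 phosphatases and SH2B adaptors 3 passed, all lower and under the fold limit (median −0.08). The most abundant, *Ptprc*, which encodes CD45, had −0.03 (95% interval −0.16 to 0.11, adjusted p = 0.742), which turned to 0.03 under that scaling.

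Of 28 genes commonly cited as STAT targets, all tested, 16 passed, 13 higher and 3 lower, and 11 were called, 8 higher and 3 lower (median 0.24). That is 57.1% passing and 39.3% called, against 40.7% and 17.6% of all tested genes. The increases included *Maf*, a transcription factor downstream of *Stat3*, from 297, 369 and 288 normalized counts in WT to 2094, 2019 and 2346 in UTX TCD (log2 fold change 2.76, adjusted p = 5.07e-07), and *Cish*. The largest decreases were *Il12rb2*, a target of *Stat4* as well as a receptor chain, *Fos* (−0.59, adjusted p = 0.000914) and *Pim1* (−0.54, adjusted p = 0.0124), a kinase gene induced by STAT5. *Pim1* had 3103 normalized counts in UTX TCD replicate 3 and 2065 and 2120 in replicates 1 and 2, and came under the fold limit without replicate 1 or replicate 2 and with libraries scaled to the same sum. The most abundant target, *Ccnd2*, had a log2 fold change of 0.26 (95% interval 0.05 to 0.47, adjusted p = 0.0538), and passed in 4 of 17 alternatives. No link between the members' levels and these genes was tested.

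**Figure D4:**
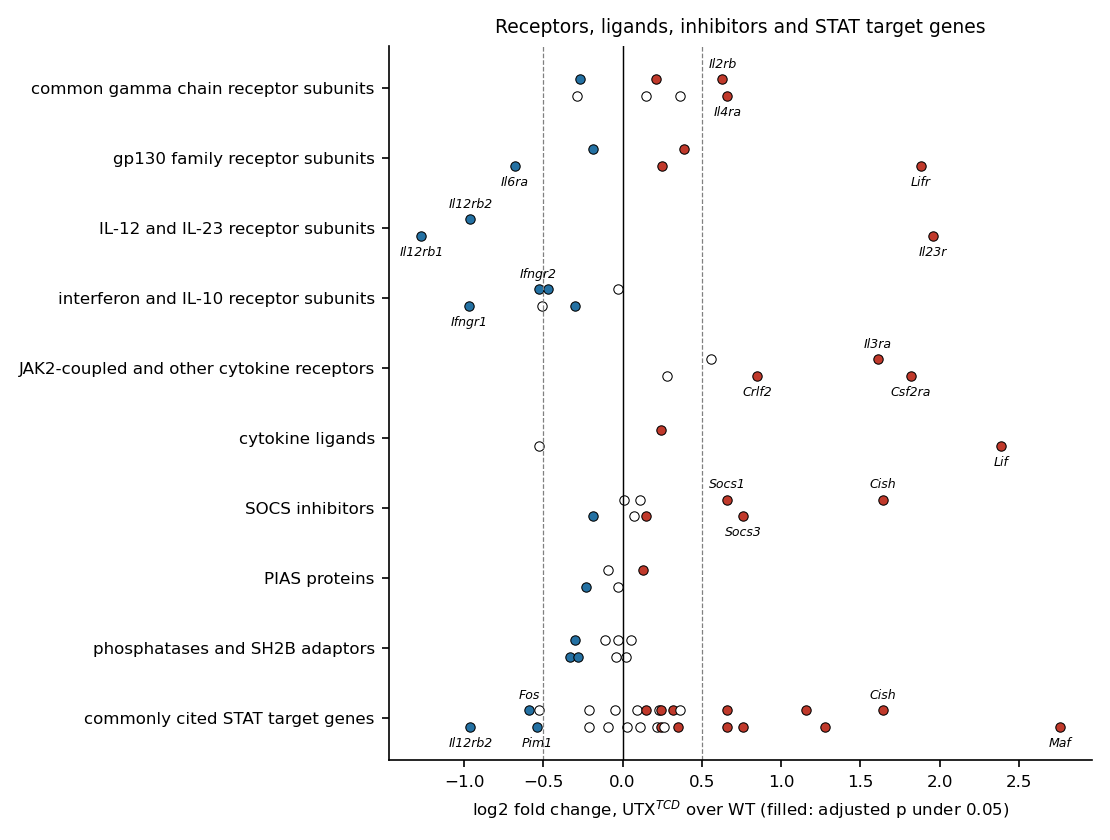
Log2 fold change, UTX TCD over WT, of tested genes of the receptor, ligand, inhibitor and STAT target lists, with genes that passed the test filled (red higher, blue lower), others open, the fold limit of 0.5 dashed and the called genes of each list that the text names labelled. The 3 chains that passed in the list of JAK2-coupled and other receptors lie at 0.85 to 1.82, and the called interferon receptor subunits lie below −0.5, while the open points of *Pias1* and *Ptprc*, at −0.03, move above 0 when libraries are scaled to the same sum.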

How the data were processed

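RNA-seq and ATAC-seq of sorted CD8+ progenitors were used, 3 libraries per genotype and assay, grouped by the genotype in the sample labels. For RNA-seq the authors aligned reads to mm10 with HISAT2 (2.2.1), counted them per gene with featureCounts and deposited a signal per gene and library, the count divided by its DESeq2 size factor. Gene annotation, strand setting and treatment of reads with several matches are not given in the sources used here. For ATAC-seq the authors used Cutadapt for trimming, Bowtie2 for alignment to mm10, Picard to remove duplicates, MACS2 for peaks, DiffBind for the comparison and HOMER for annotation. The deposited log2 value of a peak is the authors' mean over the libraries of a genotype, and a shift of reads for the transposase is not given in the sources used here. Log2 fold changes, their standard errors and adjusted p-values for genes, and fold, p-value and FDR for peaks, are the authors' own comparisons and were not used.

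limma 3.58.1 (lmFit, eBayes with trend) in R 4.3.3 was run on all genes whose mean normalized count reached 10, on log2(normalized count + 1), a scale that understates the change of low genes, and p-values were adjusted by Benjamini-Hochberg over all genes tested. With limits of 0.05 on the adjusted p and 0.5 on the absolute log2 fold change, limma called 2538 genes. Whole reads came from division of each library's values by the value of 1 read. Within 0.001 of a whole number were 100% of values in 4 libraries and 99.996% in WT replicate 3 and UTX TCD replicate 3, with a largest distance of 0.0015. In WT replicate 1 a read is worth so close to 1 that the standard test of such recovery skips it, so that edgeR, DESeq2 and TMM rest for that library on this calculation alone. On these reads edgeR 4.0.16 called 2544 genes and DESeq2 1.42.0 called 2422. Summed levels and the ratio of *Stat5a* to *Stat5b* were compared by two-sided exact permutation tests. Replicates differed beyond sampling noise, with a chi-square per gene of at least 11.9 between libraries of a genotype. The fits and the motif search were tested on simulated data.

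Exon lengths and overlaps came from GENCODE, and sequences and promoters from the RefSeq genome of GRCm38.p6. All 23908 peaks on named chromosomes lay inside the chromosome ends of that build. Tables and plots used Python 3.11.15 and matplotlib 3.10.9. Genes named are the 9 members, *Kdm6a*, the sort genes *Slamf6*, *Cxcr6*, *Entpd1* and *Cd44*, and of each list the called genes (the 3 largest increases and decreases where over 6 were called) and the most abundant gene, though not every gene or list that this takes in is reported. For peaks, each member is described by its number of peaks, their direction and the largest difference. The members and lists were chosen with earlier results of these data known. Alternatives were pseudocounts of 0.5 and 5, no filter and a filter of 50, libraries scaled to the same sum, TMM factors, edgeR, DESeq2, the replicate block, a 1.5-fold limit and no fold limit, each library left out, and for peaks a limit of 0.5 and a distance of 50 kb.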

Additional observations from a re-analysis of the deposited data

How the results depend on the processing

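Of the members' log2 fold changes, 48 of 54 with a library left out and 95 of 99 under other alternatives kept their direction and side of the threshold. Counts of alternatives include those that change only the fold limit, which repeat the main fit. With libraries scaled to the same sum 3 members passed, *Jak1* was at 0.17 and *Stat6* at 0.13, both then past the threshold, and *Jak3* (0.04), *Stat5a* (0.04), *Pias1* (0.04) and *Ptprc* (0.03) turned positive. That scaling raised the median of all genes to 0.062, and 67% of the calls were then higher, against 59.8%. Without a fold limit 5887 genes and 1 member, *Jak2*, were called. Past 0.5 were 11 of the members' peaks, 10 higher and 1 lower. Each library left out in turn gave ranges of −0.16 to 0.05 for *Jak3*, −0.05 to 0 for *Stat5a*, −0.06 to 0.01 for *Pias1* and −0.05 to 0 for *Ptprc*, and 1 to 2 members passing. The cause was not tested.

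With the replicate number as a block (replicate block), 2474 genes were called, 2423 of them among the 2538, and 1 member passed. Not all same-numbered libraries exceeded a correlation of 0.1, the level set for treating them as pairs. Their deviations from the group means correlated at 0.31, −0.20 and 0.09 across genes, and WT replicate 3 correlated best with UTX TCD replicate 2 (0.29), so not every library correlated best with its own number. Of the named genes, *Osm* and *Il23r* no longer passed under the block. Other named genes kept direction and side in 164 of 184 values with a library left out and 327 of 338 under other alternatives, and list counts stayed within 1.5 times in 46 of 60 and 105 of 110.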
